A study of Gallus gallus with 16 samples.

Results

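The epithelium of growing chicken feathers was compared between 2 narrow-vane groups, lateral remige and dorsal plume, and 2 wide-vane groups, medial remige and breast plume. Primary remiges are flight feathers whose lateral vane is narrower than the medial one, and dorsal and breast plumes are body feathers that differ in vane width. The 8 epithelium libraries of 16 in all were taken, 2 for each of the 4 groups, and the other 8 came from the pulp of the same feathers. All birds were White Leghorn chickens with no treatment. Each remige library pooled 3 follicles that had been divided into lateral and medial sides, and each plume library pooled 25 follicles. The 2 libraries of a group are labelled batch I and batch II, given below as library 1 and library 2, and each value pools several follicles. The narrow and wide groups of the plumes also differ in body region, and those of the remiges in the side of one follicle, so vane width and position cannot be told apart.

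The feather epithelium is a cylinder of keratinocytes around the pulp. Its folds become barb ridges, which grow into the barbs of the vane, while a barb generative zone opposite the rachis sets where new barbs start. Secreted WNT, BMP and hedgehog ligands, with their antagonists, are known to pattern this epithelium, and its cells later fill with feather keratins, a family of small structural proteins found in birds and reptiles. In pigmented feathers, melanocytes sit among the keratinocytes of the barb ridges and pass pigment to them. Pigment was not measured here.

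Each gene was measured as TPM, the deposited RPKM of a library rescaled to sum to 1000000, and differences are narrow minus wide on the log2(TPM + 1) scale, which understates the change of genes at low levels. The question was which genes differ with vane width in the same way in both feather types, and which go opposite ways. Of 15512 genes in both tables, 11784 reached a mean of 1 TPM in at least 1 of the 4 groups and were tested with limma. The joint fit gave 1 narrow-minus-wide difference with the feather type as a term, and a second test asked whether that difference was unequal in remiges and plumes. A gene was called at a Benjamini-Hochberg adjusted p under 0.05 over all 11784 genes.

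The libraries had 42.2 to 45.8 M alignments in remige epithelium and 32.6 to 37.7 M in plume epithelium. The 26 keratinocyte markers summed to 11090 to 14358 TPM in the 8 epithelium libraries, against 1563 to 2886 TPM in the 8 pulp libraries. The fibroblast markers summed to 273 to 531 TPM in epithelium and 26365 to 39915 TPM in pulp. The fibroblast sums of narrow and wide epithelium overlapped in both feather types, at 377 and 434 TPM in lateral against 396 and 416 TPM in medial epithelium, and at 531 and 273 TPM in dorsal against 391 and 361 TPM in breast epithelium. The keratinocyte sums did not overlap, with each narrow library above each wide library of its feather type. Lateral epithelium held up to 12332 TPM of them against up to 11747 TPM in medial, and dorsal up to 14358 TPM against up to 11377 TPM in breast epithelium.

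In the joint fit limma called 26 genes higher in narrow-vane epithelium (0.221% of the genes tested) and 36 lower (0.305%). All 62 had the same sign in remiges and plumes, and in each feather type both narrow libraries lay on one side of both wide libraries. Of all genes tested, 5.59% were higher in that non-overlapping way in both feather types and 7.78% were lower. The joint fit counts unequal differences in its spread and could hardly call a gene of opposite signs. The agreement of the 62 thus largely follows from the test. The test of unequal differences called 98 genes (0.832%), of which 33 (0.28%) had opposite signs, 63 had the same sign and 2 had a remige difference of exactly 0. Alone, lateral against medial epithelium gave 6 calls (0.0509%) and dorsal against breast epithelium 983 (8.34%), 475 of them higher (4.03%). Of the 62 genes, 59 also passed in plumes alone and 4 in remiges alone. These fits leave out the pairing of batches, which showed in remiges (batch differences correlated with r = 0.796) and hardly in plumes (0.101). Under a replicate block 211 genes passed in remiges and 3386 in plumes.

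**Figure D1:**
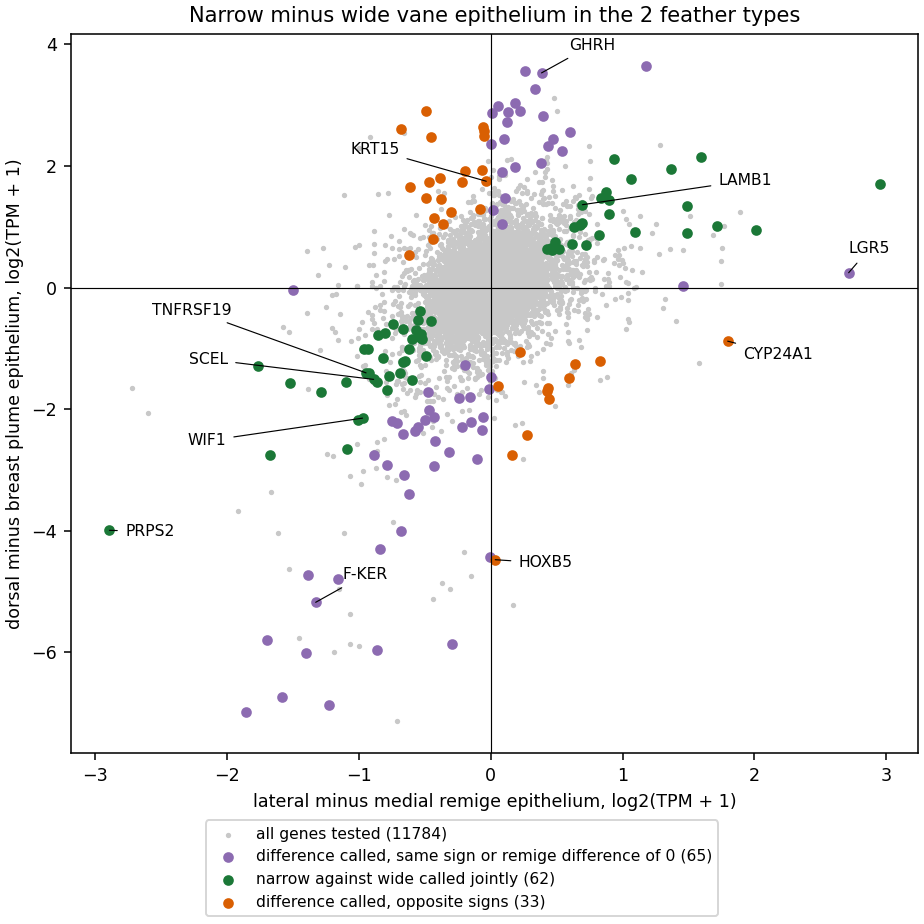
Each point is a gene, with its lateral minus medial difference in remige epithelium on the x axis and its dorsal minus breast difference in plume epithelium on the y axis, both on the log2(TPM + 1) scale. The 62 genes called jointly lie at the lower left and upper right, the 33 opposite calls at the upper left and lower right, and the remaining 65 calls of the difference mostly have the larger difference in plumes.

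The calls rested on few libraries. Without breast replicate 1, breast replicate 2, dorsal replicate 1 or dorsal replicate 2 the joint fit called 1 gene each time, PRPS2, and without lateral replicate 2 it called 2, PRPS2 and LMO3. It called 131 without lateral replicate 1, 64 without medial replicate 1 and 106 without medial replicate 2. In each of these 8 fits all 62 genes kept their sign. The 62 were chosen by the full fit on mostly the same libraries, so this is not independent evidence. A replicate block, in which libraries of the same batch are compared, gave 65 higher and 87 lower calls, and 7 of the 62 were lost. When the mean of the 2 contrasts was tested in the fit of 4 group means, whose spread leaves out unequal differences, 296 genes were higher and 367 lower (together 5.63%), 630 of them with the same sign in both feather types. By ratio alone, with means over 1.8 times apart in both feather types, 0.0418% of the genes at 25 TPM or more were higher and 0.753% lower.

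The gene with the smallest adjusted p was PRPS2, which makes phosphoribosyl pyrophosphate for nucleotide synthesis and was singled out after its values were seen. It was at 1.07 and 0.992 TPM in lateral against 15 and 13.1 TPM in medial epithelium. In plumes it was listed at 0 and 0.0983 TPM in dorsal against 15 and 16.4 TPM in breast epithelium. Its joint difference was -3.44 (standard error 0.23, limma adjusted p = 0.002), and the 4 wide libraries were alike in the 2 feather types. In pulp PRPS2 was at 2.83 and 2.91 TPM on the lateral and 3.34 and 3.85 TPM on the medial side, and at 4.81 and 3.41 TPM in dorsal against 14.5 and 14.5 TPM in breast plumes. LMO3, a LIM-only transcriptional cofactor also singled out afterwards, was at 4.12 and 5.48 TPM in lateral against 14.9 and 16.2 TPM in medial epithelium. In plume epithelium it was at 1.44 and 1.73 TPM in dorsal against 6.66 and 6.64 TPM in breast. The LMO3 difference was -1.54 jointly, -1.52 in remiges and -1.57 in plumes (limma adjusted p = 0.00849 jointly). The sizes in the 2 feather types were close for LMO3, with a difference between them of 0.05 (standard error 0.26).

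Among receptors and secreted signals that fell with narrow vanes, TNFRSF19 had the highest levels. It encodes TROY, a tumour necrosis factor receptor family member of skin appendages, related to the ectodysplasin receptors. TNFRSF19 was at 240.4 and 219.6 TPM in lateral against 499.5 and 393 TPM in medial epithelium, and at 122.57 and 111.63 TPM in dorsal against 320.3 and 303 TPM in breast epithelium. The groups did not overlap in either feather type, and wide epithelium held 1.94 times the narrow mean in remiges and 2.66 times in plumes (joint log2 difference -1.17, standard error 0.12, limma adjusted p = 0.0227). In pulp TNFRSF19 ranged over 316 and 357 TPM on the lateral and 297 and 306 TPM on the medial side, and over 205 and 205 TPM in dorsal against 193 and 218 TPM in breast plumes. In remige pulp both lateral libraries were thus above both medial ones, the other way round from epithelium. KITLG, the ligand of the KIT receptor, was at 30.3 and 24.3 TPM in lateral against 49.8 and 39.4 TPM in medial epithelium. In plumes it was at 45 and 37.6 TPM in dorsal against 109 and 114 TPM in breast epithelium (joint difference -1.05, standard error 0.17, limma adjusted p = 0.0455). BMP6, a bone morphogenetic protein, was lower at 5.46 and 6.95 TPM in lateral against 11.6 and 10.8 TPM in medial epithelium, and at 1.62 and 1.75 TPM in dorsal against 6.14 and 6.57 TPM in breast epithelium (limma adjusted p = 0.0441). Most BMP6 RNA was in pulp, at 43.6 to 76.7 TPM.

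WNT antagonists were called in both directions. WIF1, which binds WNT proteins outside the cell, was at 13.2 and 11.9 TPM in lateral against 24.3 and 26.9 TPM in medial epithelium. It was at 20.3 and 12.3 TPM in dorsal against 74.7 and 72.9 TPM in breast epithelium (joint difference -1.56, standard error 0.25, limma adjusted p = 0.0455, or 0.052 under the replicate block). Pulp held the reverse order, with WIF1 at 24.3 and 16.6 TPM on the lateral and 9.12 and 5.57 TPM on the medial side, and at 39.3 and 27.7 TPM in dorsal against 5.76 and 9.46 TPM in breast plumes. NOTUM, a secreted enzyme that strips the lipid from WNT proteins, was at 20.5 and 14.5 TPM in lateral against 34.3 and 29.8 TPM in medial epithelium, and at 40.4 and 37.2 TPM in dorsal against 70.7 and 63.9 TPM in breast epithelium (limma adjusted p = 0.0396). Its fall was of like size in both feather types, -0.85 in remiges and -0.78 in plumes. Going the other way were SFRP2, a secreted frizzled-related protein, and SOSTDC1, a secreted antagonist of BMP and WNT signals, both named after their values were seen. SFRP2 was at 4.05 and 4.79 TPM in lateral against 1.23 and 1.99 TPM in medial epithelium, and at 10.4 and 13.3 TPM in dorsal against 2.96 and 2.43 TPM in breast epithelium. SOSTDC1 was at 16.3 and 17.9 TPM in lateral against 9.76 and 11 TPM in medial epithelium, and at 32.1 and 26.3 TPM in dorsal against 13.6 and 13.8 TPM in breast epithelium. Both rose (joint differences 1.43 and 0.85, limma adjusted p = 0.0396 for each). Both genes had far higher levels in pulp, 87.8 to 266 TPM for SFRP2 and 226.96 to 669.8 TPM for SOSTDC1, and the part of pulp RNA in their epithelial values was not tested.

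Of the 49 WNT pathway genes tested, these 4 were the joint calls, 2 in each direction, and 3 more differed between feather types: WNT3A, WNT8C and LGR5. Over all genes tested 0.526% were joint calls and 0.832% unequal. The median joint difference of the list was 0.17, against -0.03 over all genes tested, and 18 of the 49 were below 0. In plumes alone 8 of the list were higher and 4 lower, against 4.03% and 4.31% of all genes tested.

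**Figure D2:**
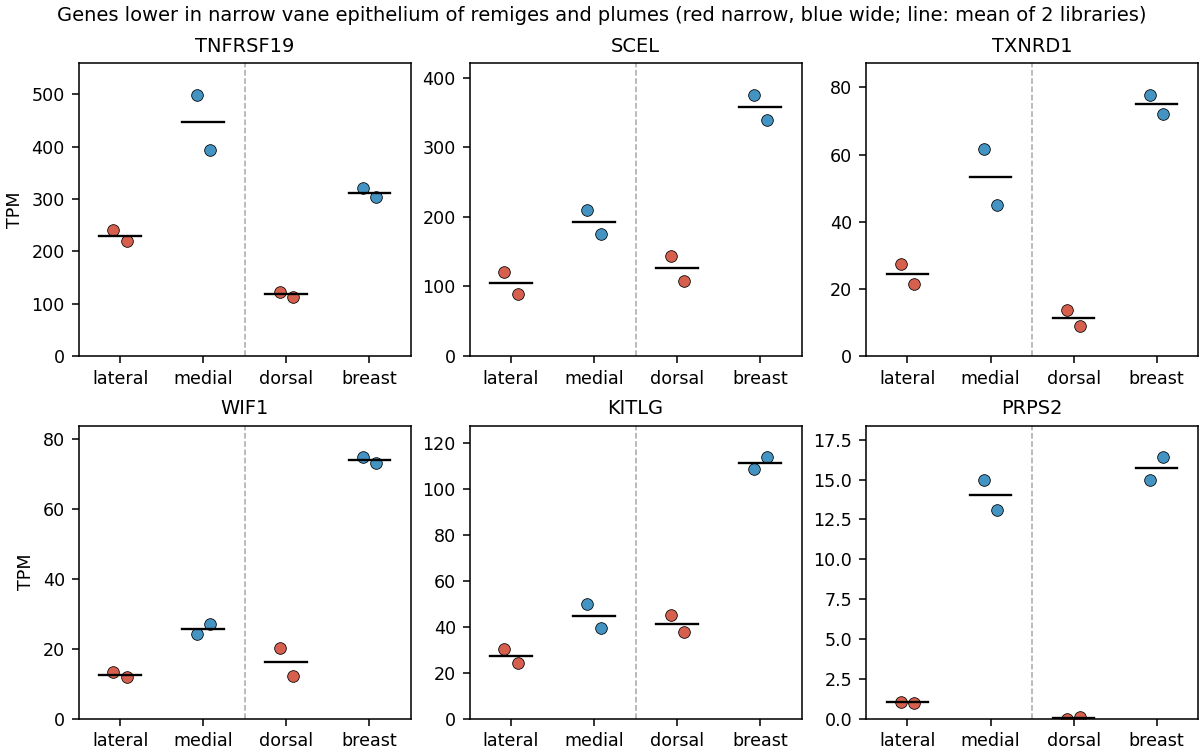
TPM of 6 genes that were lower in narrow-vane epithelium of both feather types. Points are the 2 libraries of a group, lines their mean, and the dashed line parts remiges (lateral, medial) from plumes (dorsal, breast). For TNFRSF19, for instance, the lateral libraries lie at 240.4 and 219.6 TPM against 499.5 and 393 TPM in medial libraries, and no narrow library of any of the 6 genes reaches a wide library of its own feather type.

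SCEL and TUBAL3 also fell. SCEL encodes sciellin, a precursor of the cornified envelope of keratinocytes, and was at 120.0 and 89 TPM in lateral against 209.7 and 176 TPM in medial epithelium. In plumes it was at 144 and 108 TPM in dorsal against 376 and 339 TPM in breast epithelium (joint difference -1.20, standard error 0.17, limma adjusted p = 0.0396). TUBAL3, an alpha tubulin of a multigene family and so with an uncertain value, was at 63.3 and 78.2 TPM in lateral against 109 and 136 TPM in medial epithelium, and at 27.8 and 29 TPM in dorsal against 96.9 and 89.2 TPM in breast epithelium (adjusted p = 0.0396 from limma). The levels of both genes were lower in each narrow library than in each wide library of its feather type. Of the 26 cornification genes tested, SCEL was the joint call, and SPINK7, a serine protease inhibitor, differed between feather types. The shares of all genes tested were 0.526% for joint and 0.832% for unequal calls. The list had a median joint difference of 0.06, and 10 of 26 members lay below 0.

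TXNRD1, the cytosolic thioredoxin reductase of the cell's redox defence, was at 27.5 and 21.5 TPM in lateral against 61.8 and 44.9 TPM in medial epithelium. It was at 13.6 and 9 TPM in dorsal against 77.9 and 72 TPM in breast epithelium, so that the wide mean was 2.18 times the narrow one in remiges and 6.64 times in plumes. The joint difference of TXNRD1 was -1.87 (standard error 0.31, limma adjusted p = 0.0494, or 0.0542 under the replicate block). Its pulp values, from 37.4 to 52.7 TPM, spanned a narrower range than those of epithelium. Among the 42 tested genes of the thioredoxin, glutathione and NRF2 list, TXNRD1 was the 1 joint call that fell and GSTA3, a glutathione transferase of a multigene family, the 1 that rose. Joint calls were 0.526% of all genes tested. GSTA3 was at 324 and 287 TPM in lateral against 235 and 206 TPM in medial epithelium, and at 159 and 167 TPM in dorsal against 111.87 and 99.96 TPM in breast epithelium.

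The other lower genes named by level and size were CHST15, NFKB1, FYN and MAT1A. CHST15, a sulfotransferase of chondroitin sulfate, was at 13.2 ± 2.06 TPM in lateral against 25.7 ± 1.45 TPM in medial epithelium and at 15.4 ± 1.84 TPM in dorsal against 42.6 ± 3.63 TPM in breast epithelium (SD, n = 2 libraries each). The transcription factor gene NFKB1 was at 29.9 ± 1.3 TPM in lateral against 45.7 ± 1.45 TPM in medial epithelium. In plumes NFKB1 was at 25.9 ± 1.26 TPM in dorsal against 47.4 ± 1.55 TPM in breast epithelium. FYN, a SRC family kinase, was at 22.8 ± 0.65 TPM in lateral against 33.2 ± 1.24 TPM in medial epithelium, and at 33.4 ± 2.3 TPM in dorsal against 60.9 ± 3.02 TPM in breast epithelium. MAT1A, a methionine adenosyltransferase, was at 63.5 ± 8.98 TPM in lateral against 93.3 ± 17 TPM in medial epithelium, and at 95 ± 3.7 TPM in dorsal against 168 ± 9.46 TPM in breast epithelium. The joint differences of these 4 ran from -1.17 for CHST15 to -0.68 for FYN and MAT1A, with limma adjusted p from 0.0287 to 0.0498. Each was smaller in remiges than in plumes. CHST15 and FYN were higher in pulp than in epithelium in every library, at 115 to 188 TPM and 96.7 to 195 TPM, and the part of pulp RNA was not tested.

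DLX5 and HEY1 were the transcription factors of the lists called in the joint fit. DLX5, a distal-less homeobox gene, was at 58.8 and 74.6 TPM in lateral against 97.1 and 100.1 TPM in medial epithelium, and at 69.5 and 63.7 TPM in dorsal against 106 and 112 TPM in breast epithelium (limma adjusted p = 0.0396). It was the 1 joint call of 49 epidermal transcription factors, with 0.526% of all genes tested called jointly. HEY1, a target of Notch signals, was at 61.9 and 71 TPM in lateral against 91.5 and 104 TPM in medial epithelium, and at 52 and 45.3 TPM in dorsal against 74.8 and 67 TPM in breast epithelium (limma adjusted p = 0.0498). It was the 1 call of 15 Notch pathway genes, and its difference was close to equal in both feather types, -0.55 in remiges and -0.53 in plumes. Whether either list held more calls than all genes tested was not tested. The remaining lower genes with a symbol, which lie below the level or size of the naming rule, were MYL2, ADAMTS20, KIAA1211, PINLYP, PIP5K1B, HAS2, CASP18, SARDH, TMEM63A, VDAC1, TMEM51, SLC25A13 and MOXD1, all named after their values were seen. Another 5 are identifiers without a symbol.

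Of the genes called lower, KITLG, RAB32 and MLPH have known roles in pigment cells. KITLG, needed by melanocytes, is given above. RAB32, a GTPase that brings enzymes to melanosomes among other cargo, was at 69.5 and 53.6 TPM in lateral against 109.8 and 84.2 TPM in medial epithelium, and at 83 and 67.7 TPM in dorsal against 178 and 171 TPM in breast epithelium (limma adjusted p = 0.0498). In dorsal pulp RAB32 was higher, at 109 and 93.3 TPM against 25 and 30.8 TPM in breast pulp. MLPH, the melanosome transport adaptor melanophilin, was at 3.24 and 4.02 TPM in lateral against 6.18 and 6.48 TPM in medial epithelium, and at 9.77 and 8.28 TPM in dorsal against 21.6 and 23 TPM in breast epithelium (limma adjusted p = 0.0482). The melanocyte markers as a list did not move this way. They summed to 291 and 338 TPM in lateral against 309.9 and 336 TPM in medial epithelium, which overlapped, and to 3415 and 2520.2 TPM in dorsal against 1365 and 1354 TPM in breast epithelium. GPNMB, which other cells also express, made up most of these sums, with 2893 and 2099 TPM in dorsal against 1116 and 1075 TPM in breast epithelium.

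Of 18 melanocyte markers tested, MLPH was the 1 joint call, against 0.526% of all genes tested. In plumes alone 8 were higher and 3 lower in dorsal epithelium, against 4.03% and 4.31% of all genes tested. Several markers were at or near 0 in remige epithelium, but others were not, such as MITF (30.4 to 38.8 TPM) and GPR143 (9.66 to 14.3 TPM). TYR (tyrosinase) was at 0.141 and 0.0612 TPM in lateral against 0 and 0.234 TPM in medial epithelium. In plumes TYR was at 21.9 and 15.6 TPM in dorsal against 5.72 and 5.58 TPM in breast epithelium. PMEL, a structural protein of melanosomes, was at 1.88 and 1.98 TPM in lateral against 1.04 and 1.53 TPM in medial epithelium, and at 121 and 88.7 TPM in dorsal against 25.1 and 36.5 TPM in breast epithelium. The lower RAB32, MLPH and KITLG of dorsal epithelium thus stood beside higher TYR and PMEL. Other markers of the list were lower in dorsal epithelium too, among them SLC45A2, EDNRB, KIT and RAB38. SLC45A2 was at 3.17 and 2.44 TPM in dorsal against 15 and 14.9 TPM in breast epithelium, and EDNRB at 1.44 and 1.38 TPM against 9.84 and 8.95 TPM. EDNRB2, also in the list, went the other way, at 9.66 and 6.97 TPM in dorsal against 3.64 and 3.68 TPM in breast epithelium. MLANA, TYRP1 and SOX10 were higher in dorsal epithelium as well. In bulk tissue, fewer cells of a type and less RNA per cell cannot be told apart.

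Basement membrane and receptor genes were among the 26 that rose with narrow vanes. LAMB1, the laminin beta 1 chain, was at 66.6 and 90.2 TPM in lateral against 47 and 47.9 TPM in medial epithelium, and at 125 and 108 TPM in dorsal against 45.7 and 43.5 TPM in breast epithelium (joint difference 1.03, standard error 0.16, limma adjusted p = 0.0409). LAMB3, a laminin chain of keratinocytes, was at 27.8 and 28.8 TPM in lateral against 19.1 and 17.1 TPM in medial epithelium, and at 20.3 and 20.4 TPM in dorsal against 13 and 11.1 TPM in breast epithelium (limma adjusted p = 0.0396). Its difference was close to equal in the 2 feather types, 0.62 in remiges and 0.71 in plumes. These were the 2 joint calls of 35 basement membrane and integrin genes, a list whose median joint difference was 0.32 against -0.03 over all genes tested. Of that list, 9 were higher and 1 was lower without overlap in both feather types, and 9 passed as higher in dorsal against breast epithelium, with COL17A1, ITGB4 and COL4A5 among them. Over all genes tested these shares were 5.59%, 7.78% and 4.03%, and 0.526% were joint calls. VWA1, an extracellular matrix protein of basement membranes, was at 22.8 and 31.7 TPM in lateral against 17.1 and 15.4 TPM in medial epithelium, and at 40.1 and 36.1 TPM in dorsal against 18.8 and 16.6 TPM in breast epithelium (limma adjusted p = 0.0452). Pulp held more RNA of both LAMB1 (273 to 689 TPM) and VWA1 (152 to 334 TPM) than epithelium, and its part in their epithelial values was not tested.

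ACVR2A, a type 2 receptor for activins and BMPs, was at 71.4 and 74.9 TPM in lateral against 52.9 and 50.9 TPM in medial epithelium. It was at 184 and 173 TPM in dorsal against 109 and 102 TPM in breast epithelium (joint difference 0.62, standard error 0.08, limma adjusted p = 0.0396). Of the 48 BMP and TGF-beta pathway genes tested, ACVR2A rose and BMP6 fell in the joint fit, which called 0.526% of all genes tested. The median of the list was -0.11, and 28 of the 48 members were below 0. SNCB, which encodes beta-synuclein, was at 33.3 and 36.6 TPM in lateral against 17.6 and 20.6 TPM in medial epithelium, and at 24 and 30.3 TPM in dorsal against 9.03 and 9.17 TPM in breast epithelium (joint difference 1.15, limma adjusted p = 0.0396). HSPB8, a small heat shock protein, was at 212 and 192 TPM in lateral against 152 and 129.98 TPM in medial epithelium, and at 136 and 147 TPM in dorsal against 89.2 and 91.4 TPM in breast epithelium (limma adjusted p = 0.0396). No narrow library of SNCB or HSPB8 overlapped a wide one of its feather type. Pulp held more SNCB, at 42.17 and 72.56 TPM in lateral against 38.03 and 63.35 TPM in medial pulp, which overlap. In plume pulp SNCB was at 71.78 and 85.99 TPM in dorsal against 34.17 and 35.10 TPM in breast. The part of pulp RNA in its epithelial values was not tested.

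**Figure D3:**
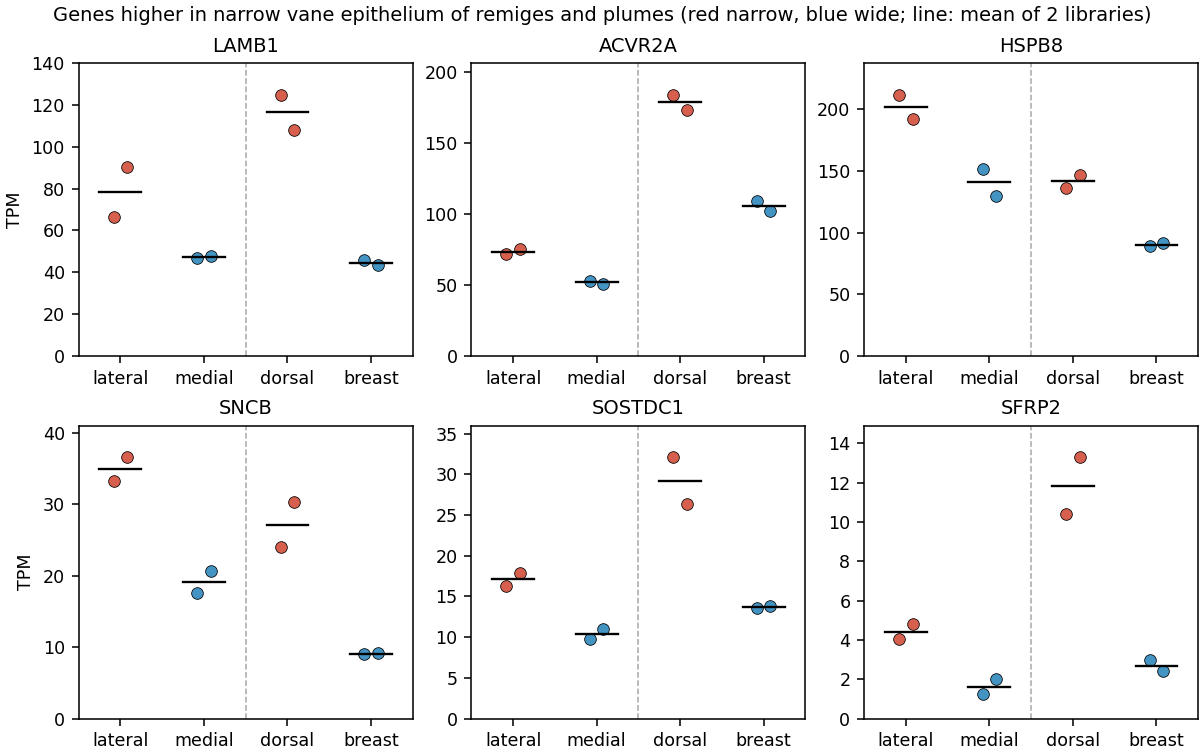
TPM of 6 genes that were higher in narrow-vane epithelium of both feather types, drawn as before with the lateral and dorsal libraries left of the medial and breast ones. For ACVR2A the lateral libraries lie at 71.4 and 74.9 TPM against 52.9 and 50.9 TPM in medial, and the dorsal ones at 184 and 173 TPM against 109 and 102 TPM in breast epithelium.

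Below the level of the naming rule, the other higher genes with a symbol were PROCA1, MMP23B, COBL, KCNMB4, ANTXR1, THBS4, PDLIM3, CNP, CRMP1B, C14orf37, AFAP1L1, LMCD1 and PLXND1, named after their values were seen. The other 4 were a microRNA locus and 3 identifiers without a symbol. COBL, which nucleates actin filaments, had the largest remige difference of these, 2.01, and passed in remiges alone (limma adjusted p = 0.0493). It was at 6.46 and 8.83 TPM in lateral against 1.03 and 1.24 TPM in medial epithelium, and at 11.8 and 9.05 TPM in dorsal against 5.05 and 4.75 TPM in breast epithelium. Its pulp values were from 0.663 to 2.34 TPM. PROCA1 was at 8.02 and 14.2 TPM in lateral against 2.27 and 3.59 TPM in medial epithelium, and at 33.7 and 32.8 TPM in dorsal against 5.9 and 7.66 TPM in breast epithelium.

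Several higher genes are chiefly pulp genes. Of the 26, 11 (42.3%) were at least 2-fold higher in pulp than in epithelium in both feather types on the log2(TPM + 1) scale, against 15.3% of all genes tested and 6 of the 36 lower genes (16.7%). MMP23B, a membrane metalloproteinase, was at 5.24 and 7.88 TPM in lateral against 1.26 and 2.7 TPM in medial epithelium, with 111 to 143 TPM in remige pulp. Of the fibroblast markers 0 of 20 passed the joint test, but with 0.526% of all genes tested called, a list of this size would often hold none. Their summed levels overlapped in both feather types as given above. DCN was the largest member of these sums in each epithelium library. It held 198 of 434 TPM in lateral library 2 and 198 of 416 TPM in medial library 2. With DCN leading the sums, their overlap cannot show whether narrow and wide libraries held equal pulp RNA. The part of pulp RNA in the 26 higher genes was not tested. COL1A2, a collagen chain of fibroblasts, was at 3.55 and 12.6 TPM in lateral against 4.01 and 6.16 TPM in medial epithelium, and at 45.5 and 9.49 TPM in dorsal against 23.7 and 20.1 TPM in breast epithelium. In the pulp itself, 12 of the 26 higher genes had a higher mean in the narrow groups of both feather types (46.2%, against 20.9% of all genes tested). Of the 36 lower genes, 17 were lower in narrow pulp of both feather types (47.2%, against 34.7%).

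Opposite differences were called for 33 genes. In 21 (0.178% of the genes tested) the lateral level was below the medial and the dorsal above the breast level, and in 12 (0.102%) it was the reverse. All 33 passed in dorsal against breast epithelium and none in lateral against medial epithelium, where 3 passed under the replicate block. In 31 of the 33 the plume difference was the larger one, and 7 had a remige difference of at least 0.5 in size. In 21 the libraries were apart in opposite directions in both feather types, a pattern that 4.39% of all genes tested showed. Without either breast library no gene was called opposite or unequal (720 and 797 of 11784 had an unadjusted p under 0.05 for unequal differences, without breast replicate 2 and 1), and without dorsal replicate 1 and 2 the opposite calls were 9 and 15. With the batch as a block 519 genes were called opposite.

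Of the opposite genes with a symbol that reached 25 TPM in both feather types, HSDL1, AQP3 and UCH-L1 had libraries apart in each, all lower in lateral and higher in dorsal epithelium. HSDL1, a hydroxysteroid dehydrogenase-like protein, was at 125 and 132 TPM in lateral against 170.5 and 159.8 TPM in medial epithelium, but at 154 and 131 TPM in dorsal against 72.4 and 64 TPM in breast epithelium. The difference between the 2 contrasts was -1.41 (standard error 0.17, limma adjusted p = 0.0149). AQP3, an epidermal channel for water and glycerol, was at 63.3 and 67.8 TPM in lateral against 107 and 95.3 TPM in medial epithelium, but at 482 and 384 TPM in dorsal against 299.9 and 292 TPM in breast epithelium (difference -1.15, standard error 0.18, limma adjusted p = 0.0457). UCH-L1, a ubiquitin hydrolase, was at 29.9 and 35 TPM in lateral against 41 and 43.6 TPM in medial epithelium, but at 24.1 and 28 TPM in dorsal against 10.7 and 7.18 TPM in breast epithelium (difference -1.84, standard error 0.28, limma adjusted p = 0.0392). For all 3 the libraries were apart in each feather type. UCH-L1 was higher in pulp, with the same order there. It was at 70.81 and 69.79 TPM in lateral against 92.80 and 104.60 TPM in medial pulp. In plume pulp it was at 160.34 and 157.03 TPM in dorsal against 53.46 and 51.36 TPM in breast. The part of pulp RNA in its epithelial values was not tested.

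In the reverse direction no strictly opposite gene with a symbol reached 25 TPM in both feather types. By the fallback of the naming rule (unadjusted p), BFIV21, PTDSS2, MVD, MND1 and FHL3 went this way, but none passed the test of the difference, with limma adjusted p from 0.114 to 0.453. That test leaves out the batch, and under the replicate block BFIV21 passed it (limma adjusted p = 0.011). At lower levels, and named after their values were seen, CYP24A1, FIBIN and TBX3 were called. CYP24A1, which breaks down vitamin D, was at 6.9 and 6.12 TPM in lateral against 1.17 and 1.14 TPM in medial epithelium, but at 1.66 and 2.54 TPM in dorsal against 4.99 and 4.34 TPM in breast epithelium (difference 2.68, standard error 0.29, limma adjusted p = 0.0121). It had the largest remige difference of the opposite calls with a symbol. Pulp held more CYP24A1 and the same order, at 30.89 and 30.30 TPM on the lateral against 9.87 and 11.66 TPM on the medial side. In plume pulp it was at 9.40 and 9.89 TPM in dorsal against 12.50 and 11.66 TPM in breast. FIBIN, a secreted protein, was at 14.8 and 14.7 TPM in lateral against 9.27 and 9.59 TPM in medial epithelium, and at 2.42 and 2.36 TPM in dorsal against 9.21 and 7.88 TPM in breast epithelium. Its pulp levels were higher, from 47.08 to 72.53 TPM. The part of pulp RNA in the epithelial values of CYP24A1 and FIBIN was not tested. The limb T-box factor TBX3 was at 23.8 and 35.8 TPM in lateral against 20.9 and 27.4 TPM in medial epithelium, which overlap, and at 1.01 and 1.07 TPM in dorsal against 9.12 and 10.8 TPM in breast epithelium (difference 2.70, limma adjusted p = 0.0173).

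**Figure D4:**
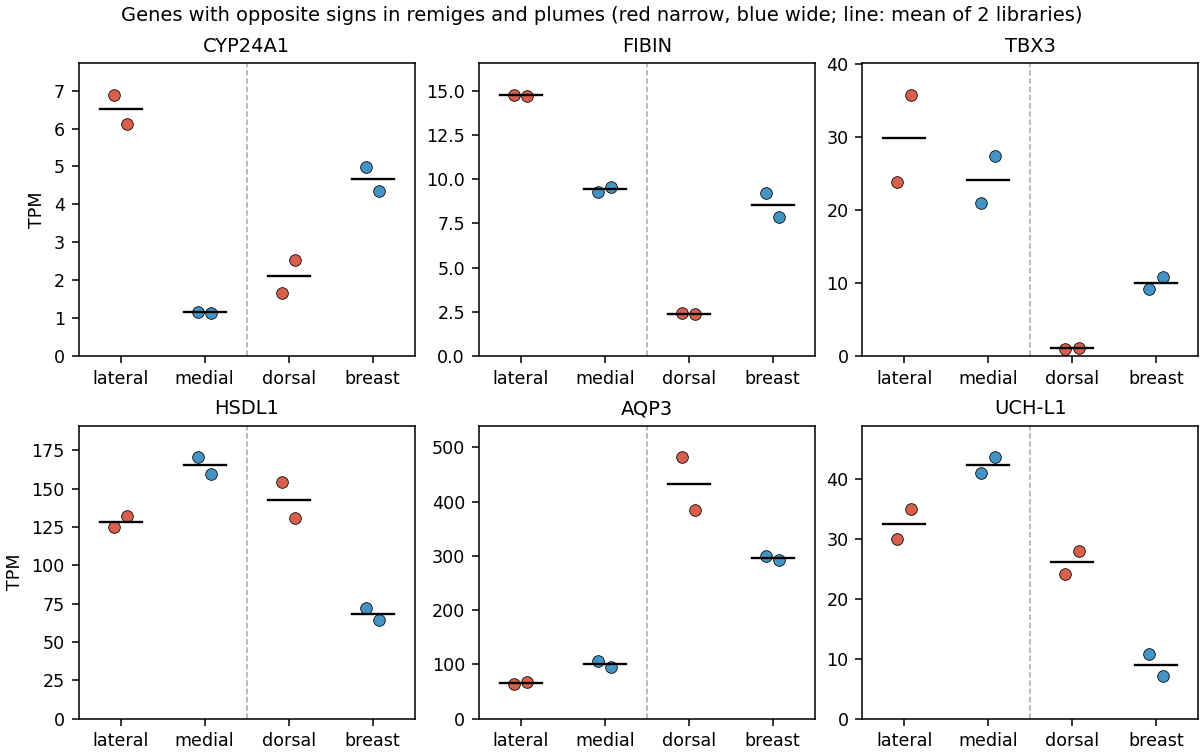
TPM of 6 genes called opposite, drawn as before. In the upper row (CYP24A1, FIBIN, TBX3) the lateral mean is above the medial and the dorsal below the breast mean, and in the lower row (HSDL1, AQP3, UCH-L1) the reverse holds, as with AQP3 at 63.3 and 67.8 TPM in lateral against 107 and 95.3 TPM in medial libraries.

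Signals and region markers were among the other opposite calls, several of them at remige differences near 0. LEFTY2, an antagonist of nodal signals, was at 2.89 and 4.31 TPM in lateral against 4.37 and 6.38 TPM in medial epithelium, and at 28.5 and 29.4 TPM in dorsal against 6.92 and 9.23 TPM in breast epithelium. FIGF, the vascular endothelial growth factor D gene, was at 7.19 and 9 TPM in lateral against 11.8 and 11.7 TPM in medial epithelium, and at 43.6 and 39.3 TPM in dorsal against 13.2 and 15.5 TPM in breast epithelium. EDN3, a ligand that acts on melanocytes, was at 18.9 and 15.7 TPM in lateral against 19.5 and 17.1 TPM in medial epithelium, and at 77.4 and 63.6 TPM in dorsal against 29.4 and 26.6 TPM in breast epithelium. WNT8C, a WNT ligand named like these 3 after its values were seen, was at 1.61 and 1.62 TPM in lateral against 1.06 and 0.842 TPM in medial epithelium, and at 3.5 and 5.04 TPM in dorsal against 14.7 and 17.2 TPM in breast epithelium. HOXB5, a Hox gene of axial position, was at 0.276 and 0.87 TPM in dorsal against 33 and 34 TPM in breast epithelium. In remiges HOXB5 was near 0 in all 4 libraries (0 and 0.117 TPM lateral, 0.0634 and 0 TPM medial), so its opposite sign there rests on hardly any signal. KRT15, a basal keratin, was at 150.72 and 142.95 TPM in lateral against 174 and 129.8 TPM in medial epithelium, and at 566 and 498 TPM in dorsal against 163.71 and 150.96 TPM in breast epithelium (difference -1.78, limma adjusted p = 0.0148).

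The 63 unequal genes with the same sign were mostly plume genes: in 60 the plume difference was larger in size, and 39 were lower and 24 higher with narrow vanes. Of the 4 feather keratins tested, F-KER was the 1 called unequal, against 0.832% of all genes tested. F-KER was at 209 and 213 TPM in lateral against 606 and 466 TPM in medial epithelium, and at 73.9 and 23.5 TPM in dorsal against 1573 and 1531 TPM in breast epithelium. Its difference was -1.33 in remiges and -5.18 in plumes, unequal at a limma adjusted p of 0.0481, and it missed the joint threshold (adjusted p = 0.0792). FK21 was at 56.3 and 29.7 TPM in lateral against 169 and 85.3 TPM in medial epithelium, and at 5.06 and 3.4 TPM in dorsal against 133 and 122 TPM in breast epithelium. FK27 was at 112 and 29.7 TPM in lateral against 352 and 98.4 TPM in medial epithelium, which overlap although each batch had more on the medial side, and at 10.5 and 6.07 TPM in dorsal against 97.1 and 86.2 TPM in breast epithelium. Neither FK21 nor FK27 passed the joint test (limma adjusted p = 0.0631 and 0.0776) or the test of unequal differences (0.0608 and 0.648), and FK27 passed under the replicate block (0.0424). All 4 tested feather keratins had lower means in both narrow groups and passed in plumes alone, where 4.31% of all genes tested passed as lower. F-KER and FK21 were apart in both feather types, as were 7.78% of all genes tested in this direction. The remaining one, BKJ, was at 4394 and 1539.6 TPM in lateral against 5291 and 1967 TPM in medial epithelium, which overlap. In plumes BKJ was at 1.34 and 2.18 TPM in dorsal against 104 and 67.6 TPM in breast epithelium. The family has many near-identical copies, so these values are uncertain.

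PADI1, AP1S3, CA13, JAC and APOA1, which the study also names for epithelium, passed neither the joint test nor the test of unequal differences (limma adjusted p from 0.0661 for AP1S3 to 0.901 for JAC in that test). Those fits leave out the batch. Under the replicate block AP1S3, CA13 and APOA1 did pass as unequal (limma adjusted p = 0.00179, 0.000704 and 0.0119), as did 1021 of all genes tested. PADI1, which converts arginine to citrulline in proteins, was at 18.5 and 26.8 TPM in lateral against 45.2 and 53.7 TPM in medial epithelium, and at 9.58 and 2.58 TPM in dorsal against 101.07 and 100.33 TPM in breast epithelium (joint difference -2.58, limma adjusted p = 0.0794). AP1S3, a subunit of a clathrin adaptor, was at 24.1 and 29 TPM in lateral against 43.8 and 56.2 TPM in medial epithelium, and at 4.26 and 2.44 TPM in dorsal against 28.4 and 25.4 TPM in breast epithelium (limma adjusted p = 0.0631). CA13, a carbonic anhydrase, was at 17.1 and 34.6 TPM in lateral against 34.8 and 58.4 TPM in medial epithelium, which all but meet, and at 5.29 and 6.16 TPM in dorsal against 41.7 and 43.2 TPM in breast epithelium (limma adjusted p = 0.0773). JAC was at 56.3 and 46.8 TPM in lateral against 143 and 71.6 TPM in medial epithelium, and at 28.8 and 27.4 TPM in dorsal against 78.3 and 63.2 TPM in breast epithelium. It missed the threshold (limma adjusted p = 0.0574) and passed under the replicate block (0.0359). APOA1, the main apolipoprotein of high-density lipoprotein, went up, at 49 and 92.4 TPM in lateral against 17.4 and 41.9 TPM in medial epithelium, and at 105 and 124 TPM in dorsal against 23.1 and 20.2 TPM in breast epithelium. It too missed the threshold (limma adjusted p = 0.0577) and passed under the block (0.0424). These 8 genes and SCEL, TNFRSF19 and TXNRD1 were picked by the study from these libraries, so their direction is not independent evidence. The study also lists many identifiers without a symbol. ENSGALG00000006133 among them, given after its values were seen, had the largest joint difference in size of all genes tested, -4.42 (limma adjusted p = 0.0676). It was at 67.3 and 67.6 TPM in lateral against 233 and 260 TPM in medial epithelium. In plumes it was at 3.73 and 1.06 TPM in dorsal against 398 and 388 TPM in breast epithelium.

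Among the unequal genes outside the keratins, TUBB3, a beta tubulin, was at 92.8 and 102 TPM in lateral against 158 and 171 TPM in medial epithelium, and at 67.1 and 67.1 TPM in dorsal against 291 and 330.0 TPM in breast epithelium (difference between feather types 1.44, limma adjusted p = 0.0121). CRABP-I, a cellular retinoic acid binding protein, was at 80.8 and 87.5 TPM in lateral against 134 and 142 TPM in medial epithelium, and at 4.91 and 6.38 TPM in dorsal against 31.7 and 28.2 TPM in breast epithelium (difference 1.52, limma adjusted p = 0.0239). It was the 1 unequal gene of 22 in the retinoic acid list, which had no joint call. Over all genes tested 0.832% were unequal and 0.526% joint calls. The level of CRABP-I was higher in pulp, from 73.7 to 1110.4 TPM, with the same direction there, and the part of pulp RNA in its epithelial values was not tested. WNT3A, a WNT ligand, was at 16.8 and 14.9 TPM in lateral against 11.5 and 10.7 TPM in medial epithelium, and at 47.7 and 41.9 TPM in dorsal against 7.69 and 7.12 TPM in breast epithelium (difference -1.97, limma adjusted p = 0.0121). TFAP2B, an epidermal transcription factor, was at 56.1 and 53.7 TPM in dorsal against 19.2 and 19 TPM in breast epithelium, and differed little in remiges (28.6 and 29 TPM lateral, 25.4 and 28 TPM medial).

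In 3 same-sign genes the remige difference was the larger. LGR5, the R-spondin receptor that strengthens WNT signals, was at 13.1 and 11.9 TPM in lateral against 1.25 and 0.883 TPM in medial epithelium, 11.7 times as high. In plumes it was high in both groups, at 58.8 and 43.5 TPM in dorsal against 44.7 and 40.6 TPM in breast epithelium, which overlap. LGR5 passed in remiges alone (difference 2.71, limma adjusted p = 0.00766), and the 2 feather types differed by 2.47 (standard error 0.27, adjusted p = 0.0121). In pulp LGR5 was at 9.62 and 12 TPM on the lateral and 2.41 and 3.4 TPM on the medial side, and at 95.4 and 79 TPM in dorsal against 14.9 and 17.7 TPM in breast plumes. The zinc finger gene TSHZ2, named after its values were seen, had the same pattern, with 22 and 21.6 TPM in lateral against 6.44 and 8.23 TPM in medial epithelium, and 52.9 and 44.1 TPM in dorsal against 46.9 and 48.3 TPM in breast epithelium. The third, ZAP70, was at 0.0386 and 0.0335 TPM in lateral against 1.92 and 1.92 TPM in medial epithelium.

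**Figure D5:**
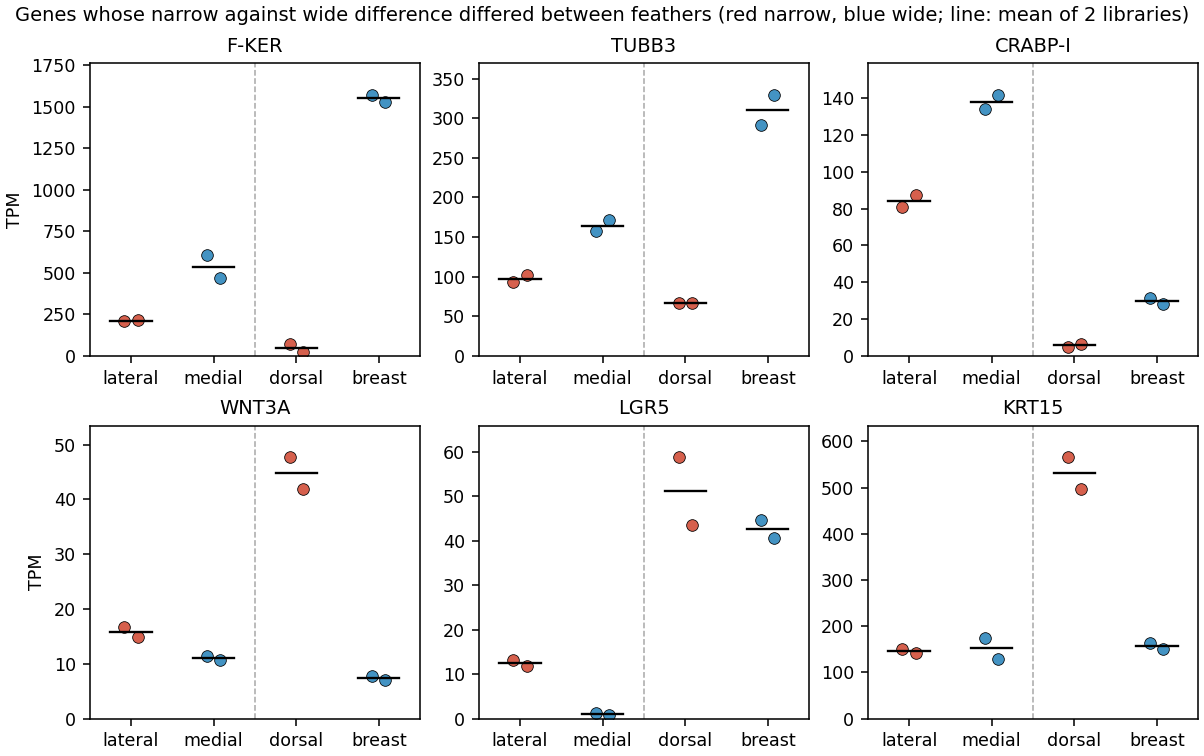
TPM of 6 genes whose narrow against wide difference was unequal in the 2 feather types, drawn as before. F-KER, TUBB3 and CRABP-I are lower in the narrow group of both, WNT3A is higher in both, LGR5 differs in remiges (13.1 and 11.9 TPM lateral against 1.25 and 0.883 TPM medial), and KRT15 differs in plumes.

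Of the 4 epithelia, some genes had their highest level in dorsal plumes and were close to 0 in remiges. The peptide hormone gene GHRH was at 18.8 and 21.8 TPM in dorsal against 0.659 and 1.04 TPM in breast epithelium with 0 to 0.394 TPM in the 4 remige libraries. NPY, which encodes neuropeptide Y, was at 19.3 and 23.4 TPM in dorsal against 1.86 and 2.08 TPM in breast epithelium, with 3 of the 4 remige epithelium libraries listed at 0. Remige pulp held 9.28 to 36.9 TPM of NPY. GRP, the gastrin-releasing peptide gene, was at 10.6 and 7.13 TPM in dorsal against 0.762 and 0.516 TPM in breast epithelium. These 3 were named after their values were seen. PITX1, a hindlimb homeobox gene, was at 4.57 and 4.48 TPM in dorsal against 0.0771 and 0.0783 TPM in breast epithelium and listed at 0 in all 4 remige libraries. NOG, the BMP antagonist noggin, was listed at 0 in both dorsal libraries against 4.78 and 3.42 TPM in breast epithelium, with 0.138 to 0.358 TPM in remiges.

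The remaining lists held few calls of either kind. No joint call was found among 15 alpha keratins, 16 desmosome and adherens genes, 20 tight and gap junction genes, 17 hedgehog, 23 FGF and 25 EGF, IGF and neuregulin genes, 18 HOX genes, 21 T-box and other positional genes, 35 planar polarity genes, 32 solute transporters or 76 cell cycle genes. The same held for 35 apolipoprotein and sterol, 50 fatty acid and ceramide, and 31 carbonic anhydrase and ion transport genes. With 0.526% of all genes called, lists of these sizes would often hold none. In the ion transport list AQP3, AQP5 and CA10 were unequal, against 0.832% of all genes tested. AQP5, a water channel, was at 6.47 and 7.29 TPM in lateral against 5.74 and 6.11 TPM in medial epithelium, and at 16.7 and 17.6 TPM in dorsal against 3.04 and 4.27 TPM in breast epithelium. Dorsal pulp held more of it, 113 and 115 TPM. The hedgehog genes had a median joint difference of 0.30, against -0.03 over all genes tested, with 2 of 17 below 0. Of the 17, 7 were higher without overlap in both feather types and 4 were apart in opposite directions, against 5.59% and 4.39% of all genes tested. SHH itself, the hedgehog ligand of the barb ridges, was at 82.7 and 95.8 TPM in lateral against 92.4 and 82.2 TPM in medial epithelium, and at 166 and 155 TPM in dorsal against 149 and 156 TPM in breast epithelium, overlapping in both. Of the 76 cell cycle genes none was called in any of the 4 tests, with a median joint difference of 0.04. These tests leave out the batch, and in remiges the summed levels differed more between batches than between sides. They were 3691 and 3219 TPM in lateral against 3845 and 3240.1 TPM in medial epithelium. The ectodysplasin and TNF receptor list (22 genes) held TNFRSF19 as its joint call, and TNFRSF13B was unequal.

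The marker lists of other cell types gave no joint call among 5 endothelial, 12 leukocyte, 5 erythroid, 3 muscle and 6 Schwann and nerve markers. Leukocyte markers summed to 125 and 167 TPM in lateral against 124 and 171 TPM in medial epithelium. In plumes they summed to 193 and 160.0 TPM in dorsal against 217 and 207 TPM in breast epithelium, where narrow and wide did not overlap. CD44 made up most of these sums, at 78.7 to 142 TPM. Endothelial sums were 10.5 to 19.3 TPM in epithelium against 981 to 1958 TPM in pulp. Schwann and nerve sums were 133 and 142 TPM in lateral against 197 and 209 TPM in medial epithelium, and 130.3 and 122 TPM in dorsal against 367 and 404 TPM in breast epithelium, apart in both, and mostly TUBB3. Muscle sums, 9.09 to 17.4 TPM, were higher in each narrow library than in each wide library of its feather type, as were erythroid sums, 103 to 134 TPM, of which the globin HBAA made up at most 8.58 TPM. Of the 26 keratinocyte markers LAMB3 rose in the joint fit and KRT15 was unequal, against 0.526% joint and 0.832% unequal calls over all genes tested. Without overlap in both feather types 10 were higher and 2 lower, against 5.59% and 7.78% of all genes tested. The part of these markers in the results was not tested.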

How the data were processed

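RNA-seq of White Leghorn feather epithelium was analysed in 8 libraries. The authors trimmed the reads (50 bp, single end), mapped them to galGal4 in Partek, with TopHat2 also named in the submitters' notes, and deposited RPKM values per gene and library, 1 table for remiges (15795 genes) and 1 for plumes (15696), with a count of alignments per library. Versions, annotation, strand setting and the handling of reads mapping to several places are not given in the sources used here. For both tables, 90 gene columns each were listed by name, and 15705 and 15606 other columns hold the same measure. In each, 21 gene names had been turned into dates. Of the genes in both tables, 2817 carry an Ensembl identifier without a symbol. RPKM are not counts, so counting error is unknown and precision rests on 2 libraries a group. The 2 are called biological replicates, but nothing names their birds.

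RPKM were rescaled to TPM over all columns of a table. Linear models on log2(TPM + 1) were fitted with limma 3.58.1 under R 4.3.3, with a mean-variance trend in the moderated spread, with feather type and vane width, and with 4 group means for each feather type and for the difference between them. Tables were normalized separately, so levels set across feather types are descriptive. The batch labels pair the groups: batch differences of lateral and medial correlated with r = 0.796 over 11784 genes and those of dorsal and breast with 0.101, and the fit with this pairing as a replicate block was an alternative. Others were pseudocounts, filters, scalings, robust fitting, the mean of both contrasts and leaving out each library. The fits were tested on simulated data with independent noise in each library and changes only in genes at higher levels. Batch effects and changed genes at low levels were thus not covered. Figures used Python 3.11.15 and matplotlib 3.10.9.

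Named genes are (a) those the study names for epithelium, (b) per direction the 12 largest joint differences among non-overlapping calls with a symbol and at least 25 TPM in 1 group of each feather type, (c) 10 per direction of opposite calls by the same limits, or the first 5 at an unadjusted p under 0.05 where fewer than 3 pass, and (d) up to 4 called members of each list. Others are marked as named after their values were seen. Rule (a) took only genes with a symbol. Members and lists were chosen with earlier results of these data known. Lists were matched by symbol and RefSeq synonym (GRCg7b, names only).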

Additional observations from a re-analysis of the deposited data

Results flagged for a closer look

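Groups of 2 libraries are too small to test for an outlying library. Among the named genes 19 had a narrow-minus-wide difference that limma found unequal in remiges and plumes (adjusted p under 0.05). Over all genes tested 98 were unequal (0.832%). Naming rules (c) and (d) took genes that passed this same test, so the count of 19 follows from the rules and is no result. The values below are the remige difference minus the plume difference on the log2(TPM + 1) scale. Positive ones were HOXB5 with 4.52, F-KER with 3.85, SPINK7 with 2.92, TNFRSF13B with 2.78, TBX3 with 2.70, LGR5 with 2.47, NOG with 2.27, S100A4 with 2.07, CRABP-I with 1.52 and TUBB3 with 1.44. Negative ones were PITX1 with -2.36, CA10 with -2.27, WNT3A with -1.97, UCH-L1 with -1.84, AQP5 with -1.79, KRT15 with -1.78, HSDL1 with -1.41, TFAP2B with -1.37 and AQP3 with -1.15. HOXB5 and PITX1 were near 0 in remiges, so their values are those of the plumes. LGR5 was the one of the 19 with its larger difference in remiges.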

How the results depend on the processing

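The number of joint calls depended on the processing. With a pseudocount of 5 there were 35 (15 higher, 20 lower, 35 shared without overlap), with no filter 5 (2 higher, 3 lower, 5 shared), and with a minimum of 25 TPM 1 (0 higher, 1 lower, 1 shared, TNFRSF19), where 36 genes were unequal, 7 opposite, 5 of them without overlap, 1 passed in remiges and 443 in plumes. RPKM as deposited gave 119 joint calls (86 lower, 119 shared). Higher calls were 45 with a pseudocount of 0.1, 43 with median-of-ratios and 47 with upper quartile scaling, lower calls 23 with quantile normalization, and remige calls 3 each with upper quartile scaling and robust fitting. With the batches as replicate block, the pairing gave 152 joint calls (65 higher, 87 lower, 128 shared), 1021 unequal, 519 opposite (179 without overlap), 211 in remiges and 3386 in plumes. The mean of both contrasts gave 663 (296 higher, 367 lower, 495 shared). Leaving out each library in turn gave 1 to 131 joint and shared calls (0 to 59 higher, 1 to 77 lower), 0 to 77 unequal, 0 to 28 opposite (0 to 22 without overlap), 0 to 3 in remiges and 141 to 1019 in plumes.

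A screen on ratios of group means alone, with no test (above 1.8 in both feather types, at least 25 TPM), held 2 higher and 36 lower genes and none opposite. A ratio of 1.5 gave 8 higher, 55 lower and 2 lower in lateral and higher in dorsal, a ratio of 2 gave 1 and 23, a minimum of 10 TPM gave 4 higher, 2 higher in lateral and lower in dorsal and 1 the reverse, and ratios within each batch gave 1 higher and 23 lower. Leaving out a replicate number gave 2 to 3 higher, 27 to 32 lower and 0 to 1 opposite.

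All 62 joint calls kept their sign wherever they were tested, though these fits reuse the libraries from which the calls were chosen. Of the 33 opposite calls, 27 still had opposite signs without lateral replicate 2, 28 without medial replicate 1, 30 without lateral replicate 1, 31 without medial replicate 2, and 32 each with median-of-ratios, upper quartile and quantile scaling. The causes of these shifts were not tested. With 2 libraries a group and RPKM in place of counts, sampling error per gene is unknown.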
